A study of Mus musculus with 8 samples.

Results

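Slpi, Serpinb2 and Serpinb3a encode protease inhibitors made by keratinocytes. Their transcripts were measured in newborn mouse epidermis labelled as a double knockout of the insulin and IGF-1 receptors, and in wild-type epidermis. The 3 genes were taken by their symbols from the authors' deposited table of knockout against control, which named 1392 genes, and each had 1 probe set there. That table lists only probe sets with an absolute fold of at least 1.5 and an unadjusted p of at most 0.0499 on these same 8 arrays, so a named gene had already been picked for a difference. The compared groups were 4 arrays of double knockout epidermis (genotype IR-/-, IGF-1R-/-, called dKO) and 4 arrays of wild-type epidermis (ctrl), all from newborn mice of the strain C57Bl/6 with the epidermis separated from the dermis. The promoter or cell type used for the deletion, and whether an array stands for 1 animal, are not given in the sources used here. The labels call the arrays of each group biological replicates, and the p-values measure the spread between them.

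Secreted and intracellular protease inhibitors set how far proteases can act in the epidermis, where proteolysis drives shedding of the outermost cells, processing of barrier proteins and tissue remodelling after injury. Serpins are consumed when they act: the target protease cleaves a reactive loop and is trapped in a complex with the serpin. Slpi, secretory leukocyte peptidase inhibitor, instead belongs to the small WAP-domain proteins and blocks neutrophil elastase and cathepsin G without being consumed, and it also has antimicrobial activity. Serpinb2, also known as PAI-2, inhibits the urokinase and tissue plasminogen activators. Serpinb3a is a mouse relative of human SERPINB3 and SERPINB4, the squamous cell carcinoma antigens, which inhibit cathepsins and chymotrypsin-like proteases.

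The upstream sequences of the 3 genes are shown because their transcripts moved in the same direction. All 3 matched the RefSeq promoter table of build GRCm38.p6, which gives 250 bases before and 50 bases after a transcript start. The windows lie at chr2:164356458-164356757 on the minus strand for Slpi, chr1:107511173-107511472 on the plus strand for Serpinb2 and chr1:107052254-107052553 on the minus strand for Serpinb3a. Capitals mark matches, on either strand, to 5 motifs, and no matches overlapped. The TATA box was searched as TATAAA and the motif of the AP-1 factors as TGANTCA. The CRE-like motif was searched as TGANNTCA, the FoxO motif was searched as TGTTTAC, and the NF-kB motif was searched as GGGA followed, after 4 bases of any kind, by a pair of C.
Slpi: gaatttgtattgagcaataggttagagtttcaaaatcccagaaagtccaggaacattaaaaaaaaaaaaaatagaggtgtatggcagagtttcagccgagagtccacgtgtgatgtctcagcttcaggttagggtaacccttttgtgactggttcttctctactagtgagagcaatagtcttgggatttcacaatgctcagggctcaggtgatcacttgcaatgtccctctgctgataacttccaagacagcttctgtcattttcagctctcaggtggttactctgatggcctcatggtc
Serpinb2: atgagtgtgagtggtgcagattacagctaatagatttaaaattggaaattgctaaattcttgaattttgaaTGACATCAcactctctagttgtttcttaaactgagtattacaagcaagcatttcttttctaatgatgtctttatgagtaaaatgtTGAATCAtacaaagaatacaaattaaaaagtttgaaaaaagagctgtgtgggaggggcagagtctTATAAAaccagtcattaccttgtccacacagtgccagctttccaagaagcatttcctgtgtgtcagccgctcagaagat
Serpinb3a: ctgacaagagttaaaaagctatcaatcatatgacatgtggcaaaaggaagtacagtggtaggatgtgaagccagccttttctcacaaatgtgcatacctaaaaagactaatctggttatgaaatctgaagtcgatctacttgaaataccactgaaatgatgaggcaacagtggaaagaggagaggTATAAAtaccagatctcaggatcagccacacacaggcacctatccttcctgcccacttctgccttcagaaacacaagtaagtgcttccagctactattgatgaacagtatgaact

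Serpinb2 held the TATA box, the AP-1 motif and the CRE-like motif, beginning 29, 94 and 179 bases before the start. From a second listed start of Serpinb2, whose window overlaps the first, the TATA box and the AP-1 motif lay 116 and 181 bases away. Serpinb3a held a TATA box, beginning 65 bases before the start, and the Slpi window held none of the 5 motifs. Among 32851 promoter windows of the same length, 13.6% held the TATA box, 7.81% the AP-1, 14.1% the CRE-like, 3.65% the FoxO and 20.7% the NF-kB motif. These matches describe letters in a window and are not shown to be binding sites.

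Both targeted receptors were lower in dKO. Insr had signals of 50.7 to 87.6 in dKO, against 176.1 to 309.6 in ctrl, and the brightest Igf1r probe set had 314.7 to 369.1 in dKO, against 456 to 707 in ctrl. Signals are in the arbitrary linear units of the deposited table, in which every array has the same trimmed mean. Of 14 keratinocyte markers, Krt15 and Krt77 had a name here, of which 1 rose and 1 fell by the test below, and their summed signal was 5351 to 12492 in dKO and 9707 to 14605 in ctrl. Differences below are log2 signal, dKO minus ctrl, with a standard error, and a gene is said to have risen or fallen where its limma p, adjusted by the Benjamini-Hochberg method over 45032 probe sets, lay under 0.05.

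All 3 inhibitors rose in dKO epidermis. Of all probe sets 0.993% rose and 1.25% fell (447 and 565, or 607 and 322 when each array was centred on its median), while among the 1392 named genes 19.4% rose and 22.2% fell. Since names come from a selection on these arrays, the calls of the 3 genes are not independent of it. Slpi rose the most of the 3 and was dim in ctrl, while both serpins were bright in each group.

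Slpi had signals of 4201.7, 888.9, 1214.6 and 197.8 in dKO replicates 1 to 4. In ctrl replicates 1 to 4 it had 21, 71.8, 36.5 and 111.3. Every dKO array lay above every ctrl array, although dKO replicate 4 was only modestly above ctrl replicate 4. Slpi averaged 1626 ± 1769 in dKO and 60.2 ± 40.2 in ctrl (SD, n = 4 each). The log2 difference was 4.29 (SE 0.74), a 19.6-fold difference of geometric means (limma, Benjamini-Hochberg adjusted p = 0.0111).

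The size of the Slpi difference rested on few arrays. The dKO signals spanned a 21.2-fold range and the ctrl signals a 5.3-fold range. Without dKO replicate 1 the difference was 12-fold, and without dKO replicate 4 it was 33.3-fold. With both arrays numbered 4 left out, a choice made after seeing the data, it was 43.5-fold. Adding 32 to every signal before log2, which damps differences between dim values, gave 3.58. In each of these settings Slpi passed the threshold, and with robust variance estimation it missed it (adjusted p = 0.102 by limma).

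Serpinb2 had signals of 8500.4, 6681.2, 7927.1 and 3400.2 in dKO replicates 1 to 4. In ctrl replicates 1 to 4 it had 2674.7, 2095.8, 2056 and 3438.9. Here the groups overlapped, since dKO replicate 4 lay just below ctrl replicate 4, and the other dKO arrays lay above every ctrl array. Serpinb2 averaged 6627 ± 2281 in dKO and 2566 ± 647 in ctrl (SD, n = 4 each). The log2 difference was 1.32 (SE 0.26), or 2.49-fold (limma, Benjamini-Hochberg adjusted p = 0.0213). Without both arrays numbered 4 it was 1.76.

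Serpinb3a had signals of 2646.6, 3879.9, 4705.7 and 2723.9 in dKO replicates 1 to 4. In ctrl replicates 1 to 4 it had 1619.3, 1516.1, 2035.7 and 2092.3. All dKO arrays lay above all ctrl arrays, with dKO replicates 1 and 4 nearest to ctrl. Serpinb3a averaged 3489 ± 988 in dKO and 1816 ± 291 in ctrl (SD, n = 4 each). The log2 difference was 0.91 (SE 0.18), or 1.88-fold (limma, Benjamini-Hochberg adjusted p = 0.0245). Its probe set name ends in _x_at, the Affymetrix mark for probes that may match other transcripts, and the mouse genome holds the close relatives Serpinb3b, Serpinb3c and Serpinb3d beside it, so the signal may combine several of these genes.

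The absence of overlap for Slpi and Serpinb3a is to be read against 3.44% of all probe sets, in which every dKO array lay above every ctrl array. Named genes had been picked for a difference, and the share without overlap among them was not counted. Of the 14 other named inhibitors described below, 10 also had no overlap, in either direction. The calls of both serpins did not hold with every array left out. Leaving out dKO replicate 2 or 3, or ctrl replicate 1, 2 or 3, ended each of them (limma; the adjusted p reached 0.0808 for Serpinb2 and 0.0944 for Serpinb3a). In those settings the differences were 1.20 to 1.35 for Serpinb2 and 0.76 to 0.97 for Serpinb3a. Fewer probe sets changed there as well, 353 to 529 in place of 1012. Slpi passed with any 1 array left out (adjusted p up to 0.0494). The authors' deposited table gives ratios of knockout over control of 10.02 for Slpi, 2.49 for Serpinb2 and 1.57 for Serpinb3a, against 19.6-fold, 2.49-fold and 1.88-fold from the fit used here.

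**Figure D1:**
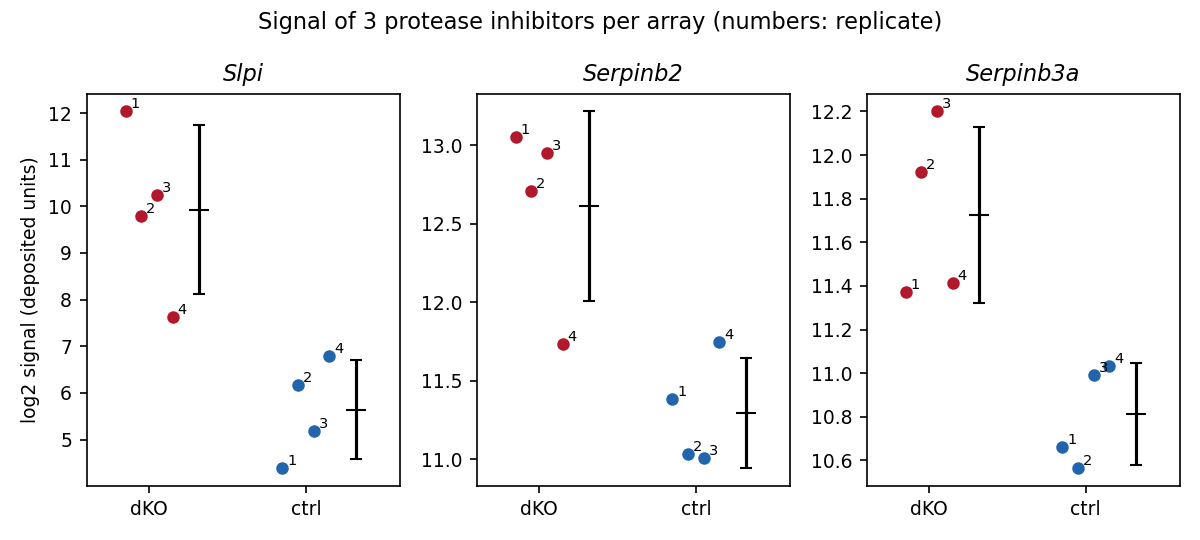
Each panel plots the log2 signal of 1 gene in the 4 dKO arrays (left, red) and the 4 ctrl arrays (right, blue), with replicate numbers beside the points and the mean ± SD as a bar. The panels have their own axes. The dKO arrays of Slpi and Serpinb3a lie above all ctrl arrays, and dKO replicate 4 of Serpinb2 (3400.2 units) meets ctrl replicate 4 (3438.9 units).

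**Figure D2:**
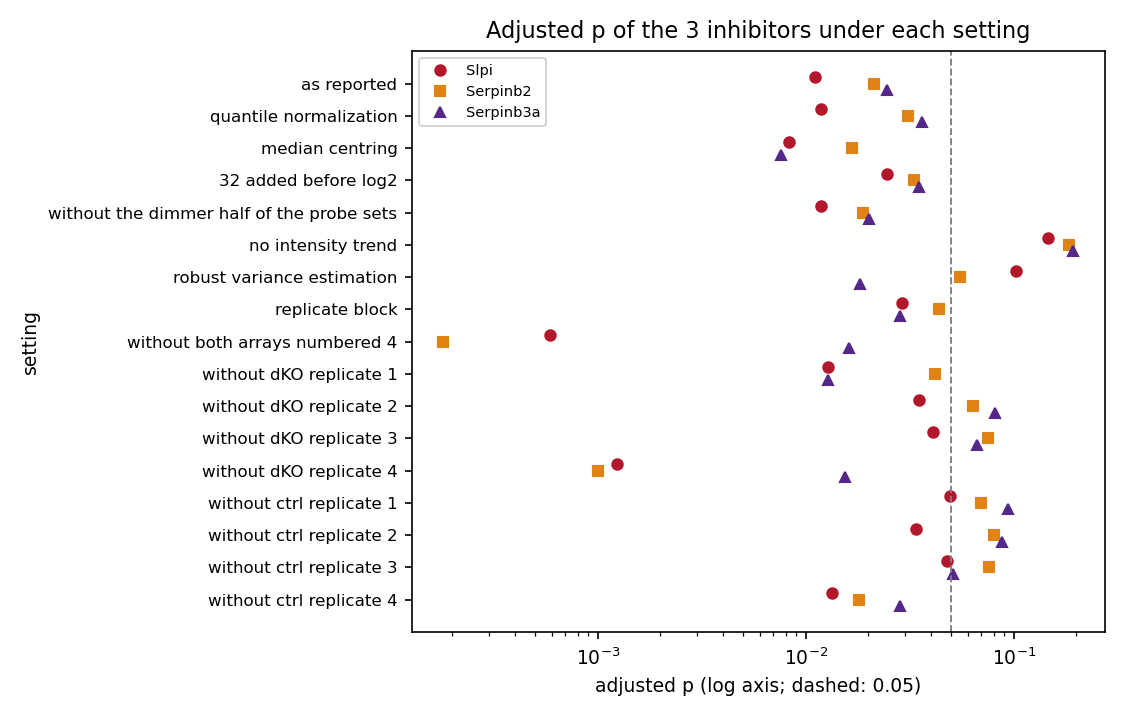
Adjusted p (log axis) of Slpi, Serpinb2 and Serpinb3a as reported and under 16 other settings, with the threshold as a dashed line. Slpi passed in 14 of the 16, Serpinb2 in 9 and Serpinb3a in 10, and none of the 3 passed without the intensity trend.

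The 3 inhibitors did not all change by the same factor. In each array the log2 signal of one was subtracted from that of another, and these values were compared between groups with an exact two-sided permutation test over the 70 assignments, adjusted over the 3 pairs. The dKO minus ctrl difference was larger for Slpi than for Serpinb2 by 2.97 (SE 0.81) and larger than for Serpinb3a by 3.38 (SE 1.05), each with an exact permutation p = 0.0286, the smallest the design allows, and an adjusted p = 0.0429. With 32 added, which damps the dim ctrl signals of Slpi, these differences were 2.28 and 2.68 and passed likewise. Between Serpinb2 and Serpinb3a the difference was 0.40 (SE 0.33), with an exact permutation p of 0.314 before and after adjustment. Leaving out any ctrl array raised the adjusted p of both Slpi comparisons to 0.0857 (exact permutation test), and leaving out dKO replicate 4 lowered that of Serpinb2 against Serpinb3a to 0.0286 with a difference of 0.59.

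The members also ranked the arrays differently. Relative to the ctrl mean, Slpi stood at 6.40 in dKO replicate 1 and at 1.99 in dKO replicate 4 on the log2 scale. Serpinb2 likewise was highest in dKO replicate 1 (1.76) and lowest of the dKO arrays in replicate 4 (0.44). Serpinb3a was highest in dKO replicate 3 (1.39) and had its lowest dKO values in replicates 1 (0.56) and 4 (0.60). Among the ctrl arrays, replicate 4 was the highest for Slpi (1.16), Serpinb2 (0.45) and Serpinb3a (0.22). For Serpinb3a, ctrl replicate 3 stood almost as high (0.18). Krt6b, a keratin of activated epidermis, was also highest among ctrl arrays in replicate 4, with 6636.3 units against 376.8 to 714.8 in the other ctrl arrays, and lowest among dKO arrays in replicate 4, with 14436.7 units against 17186.7 to 19173.2. Whether that state of the tissue has a part in the inhibitor signals was not tested.

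The named genes whose profiles lay nearest to each inhibitor were found by the root mean square difference of log2 signal over the 8 arrays, each profile centred on its own mean. A likeness between arrays of these genes and the inhibitor follows from this choice and is only described here. Nearest to Slpi were the cytokine Il33 (0.46), the cornified envelope protein gene Rptn (0.71) and the late cornified envelope genes Lce3b (0.86) and Lce3c (0.87). The probe set names of Lce3b and Lce3c end in _x_at, so their signals may include other transcripts. Il33 had 3563.4, 732.3, 1656 and 337.3 units in dKO and 39.3, 64.3, 32 and 158.2 in ctrl, so it shared with Slpi the high value of dKO replicate 1 and the low value of dKO replicate 4. Nearest to Serpinb2 were Atp1b1, a subunit of the sodium pump (0.12), 1300014I06Rik (0.16), the gap junction gene Gjb2 (0.17) and the small GTPase gene Rhof (0.18). Gjb2 read 3026.4 units in dKO replicate 4 and 3739.8 in ctrl replicate 4, and so repeated the overlap seen for Serpinb2.

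Nearest to Serpinb3a were the chemokine Cxcl16 (0.14), the ubiquitin ligase gene Siah2 (0.17), the cytokine receptor chain Il2rg (0.17) and AI848100 (0.17). Cxcl16 had 314.3, 483.3, 440.6 and 326.3 units in dKO and 168.9, 166.9, 213.8 and 206.1 in ctrl, with replicates 1 and 4 the lowest dKO arrays as for Serpinb3a. The inhibitors were not each other's nearest neighbours. Among 1391 named genes, Serpinb3a was the 176th nearest to Serpinb2 and Serpinb2 the 335th nearest to Serpinb3a (0.45). Serpinb2 was the 95th nearest to Slpi and Slpi the 1262nd nearest to Serpinb2 (1.78). Serpinb3a was the 337th nearest to Slpi and Slpi the 1342nd nearest to Serpinb3a (2.12). This measure favours genes with a difference of similar size, and it compares 8 arrays of which the 2 groups were already known to differ.

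**Figure D3:**
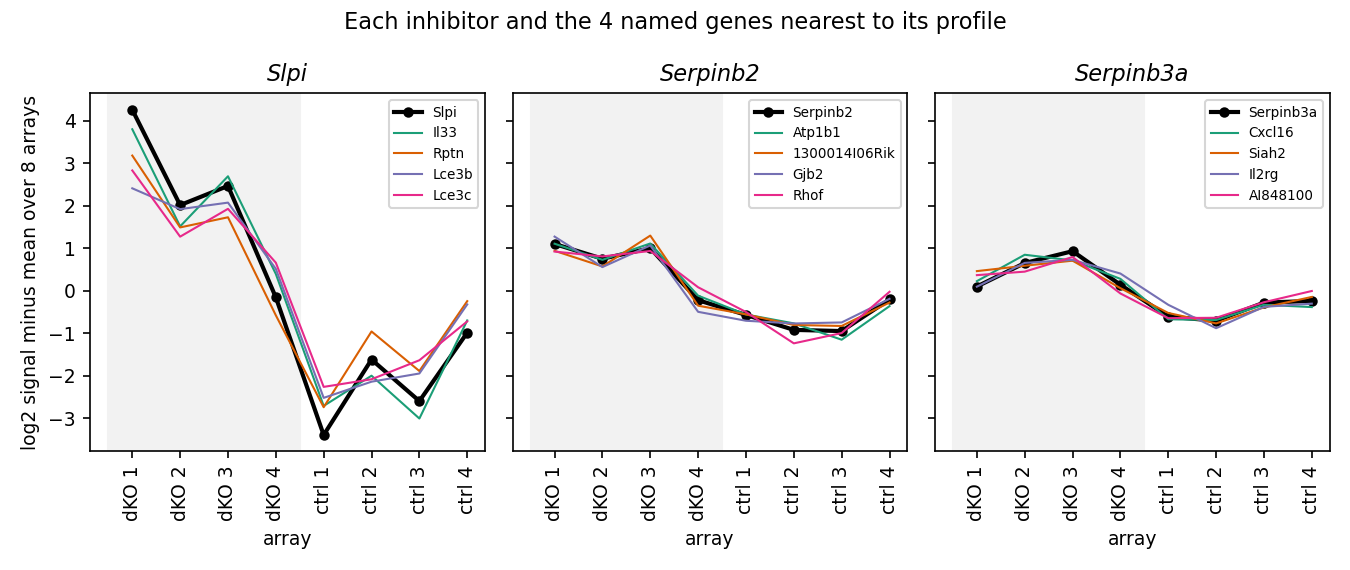
Log2 signal minus the mean over the 8 arrays (vertical axis) for each inhibitor (black) and its 4 nearest named genes (colours), with the dKO arrays on a grey ground at the left and the ctrl arrays at the right. The Slpi panel spans the widest range, and Il33 follows its descent to dKO replicate 4.

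The other named protease inhibitors changed in both directions. Beside the 3 genes above, 14 inhibitors or relatives from lists of serpins and other inhibitors had a name here, 7 of 44 serpins and 7 of 54 others. Of these 14, 6 rose, 2 fell and 6 did not pass, that is 42.9% rose, against 19.4% of all named genes. A positive difference, passed or not, was found for 12 (85.7%), Crispld2 included, against 43.2% of all named genes. The median difference was 1.10, against -0.59 over the named genes. The members of these lists with no name here were not analysed, so nothing is said of inhibitors as a class.

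Among serpins 2 rose, 1 fell and 4 did not pass. Serpinb11 rose by 1.58 (SE 0.24), with 304.2 to 772.5 units in dKO and 147.7 to 219.4 in ctrl (limma, Benjamini-Hochberg adjusted p = 0.00615), and it passed with any 1 array left out. Serpine2, also called protease nexin-1, which inhibits thrombin and plasminogen activators, rose by 1.16 (SE 0.20), with 288.5 to 522 units in dKO and 170.5 to 253.7 in ctrl. Serpinb1b fell by 1.52 (SE 0.29), with 24.5 to 33.5 units in dKO and 57.3 to 100.6 in ctrl, and by 0.90 with 32 added. Among those that did not pass, Serpinb1a had a difference of 1.32, Serpinb6c of 1.28 and Serpinb6a of 0.65. Leaving out ctrl replicate 1 ended the call of Serpine2, and leaving out dKO replicate 2 or ctrl replicate 1, 2 or 3 that of Serpinb1b (limma; the adjusted p reached 0.0515 and 0.0829).

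The serpins that rose included neighbours on 1 chromosome. In the RefSeq gene table of GRCm38.p6, chromosome 1 holds a run of 12 Serpinb genes that includes Serpinb3a, Serpinb11 and Serpinb2 in that order. Those 3 had a name here and rose, while the other 9 had none. Serpinb3a and Serpinb2 are the members already described, so only Serpinb11 is added, and nothing is said of the run as a whole. Of all named genes 19.4% rose and 22.2% fell. Of 16 Serpinb genes in a cluster on chromosome 13, 4 had a name, of which Serpinb1b fell and Serpinb1a, Serpinb6c and Serpinb6a did not pass. Slpi lies on chromosome 2 among 15 genes of the Wfdc and Slpi group, and of its neighbours there Wfdc12 had a name, with 58.1 to 141.5 units in dKO, 36.3 to 60.9 in ctrl and a difference of 1.20 (SE 0.32) that did not pass.

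Of the other inhibitors 4 rose, 1 fell and 2 did not pass. Spink12, of the Kazal-type inhibitor family, had 929, 159.6, 187.7 and 169.9 units in dKO and 17.6, 26.6, 14.4 and 33.6 in ctrl, and rose by 3.59 (SE 0.51, limma, Benjamini-Hochberg adjusted p = 0.00438). As for Slpi, dKO replicate 1 was the highest, and the ctrl signals were dim. With 32 added Spink12 rose by 2.46. Spink5, which encodes the kallikrein inhibitor LEKTI and is mutated in Netherton syndrome, rose by 0.96 (SE 0.16), with 5587 to 7817 units in dKO and 2808 to 4541 in ctrl. The cysteine protease inhibitors Cst6 (cystatin E/M) and Cstb (cystatin B) rose by 1.03 (SE 0.19) and 0.78 (SE 0.16).

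Expi, current symbol Wfdc18, is a WAP-domain gene like Slpi but fell by 2.62 (SE 0.55), with 10.2 to 41.8 units in dKO and 74.3 to 339.2 in ctrl (limma, Benjamini-Hochberg adjusted p = 0.0287). The brighter probe set of Crispld2, a secreted protein listed for its family and not known as an inhibitor, had a difference of 0.59 (SE 0.63) that did not pass. Its dimmer probe set gave 3.69 (SE 0.87, limma, Benjamini-Hochberg adjusted p = 0.0496), so the probe sets disagree. The name of the dimmer probe set ends in _x_at, and it read 9.4 to 323.8 units in dKO and 4.1 to 7.5 in ctrl. The array medians were 40.7 to 51.7, so its fold is poorly known. Calls that ended with 1 array left out were those of Spink5 (ctrl replicate 1), Cst6 (dKO replicate 2 or ctrl replicate 1), Cstb (dKO replicate 2 or 3, or ctrl replicate 1, 2 or 3) and Expi (dKO replicate 3 or ctrl replicate 1, 3 or 4), where the limma adjusted p reached 0.0505, 0.0691, 0.0795 and 0.103. With 32 added Expi no longer passed (adjusted p = 0.0527 by limma).

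**Figure D4:**
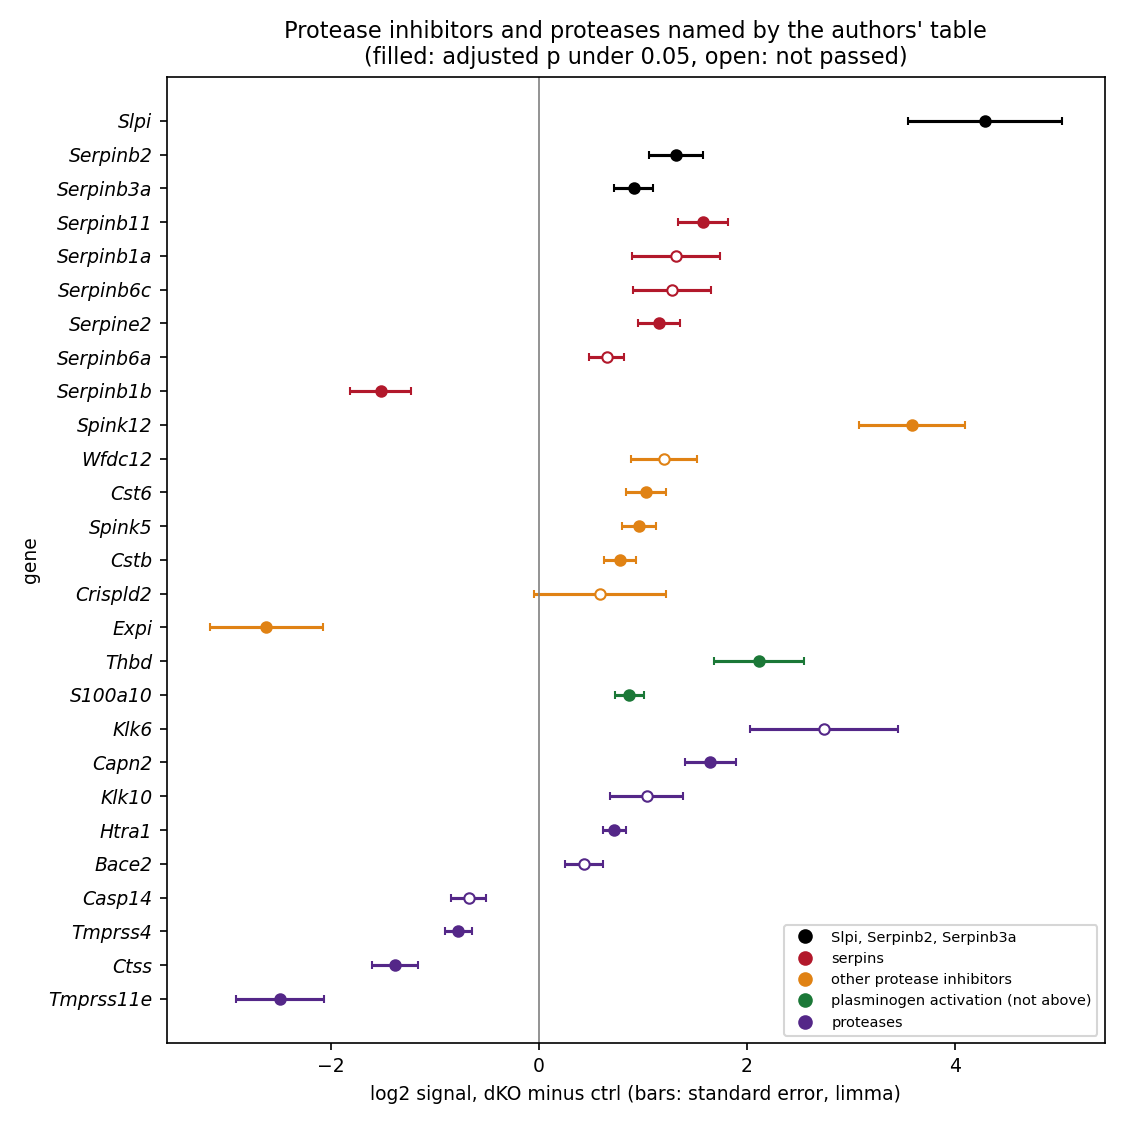
Log2 difference in signal, dKO minus ctrl, with its standard error (horizontal axis) for Slpi, Serpinb2 and Serpinb3a and for genes of the 4 lists, each shown once. Filled points passed the adjusted threshold. Inhibitors lie mostly at the right of 0, with Serpinb1b (-1.52) and Expi (-2.62) at the left, and proteases lie on both sides.

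Proteases of epidermis and inflammation, listed whether or not these inhibitors act on them, also changed in both directions. Of 78 listed proteases 9 had a name, of which 2 rose, 3 fell and 4 did not pass, with a median difference of 0.43, beside 19.4% that rose and 22.2% that fell among all named genes. The calpain subunit gene Capn2 rose by 1.65 (SE 0.24), with 1021 to 2750 units in dKO and 473.8 to 599.3 in ctrl, and the secreted serine protease gene Htra1 by 0.73 (SE 0.11). Ctss, encoding cathepsin S of antigen-presenting cells, fell by 1.38 (SE 0.22), with 186.7 to 364.9 units in dKO and 581.9 to 894.2 in ctrl. The membrane-bound serine proteases Tmprss11e and Tmprss4 fell by 2.49 (SE 0.43) and 0.77 (SE 0.13). Tmprss11e was dim, with 7.6 to 32.2 units in dKO and 84.5 to 130.5 in ctrl, where the array medians were 40.7 to 51.7, and with 32 added it fell by 1.34. The kallikrein Klk6 ran from 271.8 to 5157 units in dKO and from 90.7 to 395.1 in ctrl, a difference of 2.74 (SE 0.71) that missed the threshold (adjusted p = 0.0732 by limma). Casp14, a caspase of terminal differentiation, had a difference of -0.67 (SE 0.17) that missed the threshold as reported (adjusted p = 0.0591 by limma) and passed with quantile normalization (0.0281) or robust estimation (0.0446). Leaving out ctrl replicate 1 ended the call of Tmprss4 (adjusted p = 0.0512, limma with Benjamini-Hochberg adjustment).

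Of 16 listed genes of plasminogen activation, the system that Serpinb2 inhibits, 5 had a name, 3 rose and 2 did not pass, with a median of 1.16. None of the 5 had a negative difference, while of all named genes 19.4% rose and 43.2% had a positive difference. The 5 include serpins already counted above, such as Serpine2 and Serpinb6a, and so are not a separate set. S100a10, a subunit of a plasminogen-binding complex at the cell surface, rose by 0.87 (SE 0.14), with 6395 to 9257 units in dKO and 3743 to 4821 in ctrl. The name of that probe set ends in _x_at, and another S100a10 probe set without this ending rose by 0.91 (SE 0.14). Thbd, thrombomodulin, had 2222.7, 658.9, 967.2 and 314.2 units in dKO and 201.6, 149.7, 230.6 and 178.6 in ctrl, and rose by 2.12 (SE 0.43). Its call ended without dKO replicate 2 or 3 or any 1 ctrl array (limma; the adjusted p reached 0.0882) and with robust variance estimation. Serpine2, described above, also rose, and Serpinb6a did not pass. The urokinase and tissue activator genes Plau and Plat, which Serpinb2 inhibits, had no name here.

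Slpi and Serpinb2 are also made by phagocytes, so marker genes of other cells were read beside them. The counts of markers are to be read against all named genes, of which 19.4% rose and 22.2% fell. The named markers, like all named genes, had been picked for a difference on these arrays. Of 19 macrophage and Langerhans cell markers 9 had a name, 5 fell and 0 rose, and their summed signal was 532.3 to 1933 in dKO and 2451 to 4037 in ctrl. Among dKO arrays the sum was lowest in replicate 1 (532.3), where Slpi and Serpinb2 were highest and Serpinb3a was lowest, and highest in replicate 4 (1933). This sum covers only the named markers, and whether phagocytes contribute to the inhibitor signals was not tested. The 2 named T cell markers (of 8) both fell, with sums of 17.1 to 40.3 in dKO and 130.9 to 228.6 in ctrl. Of 13 neutrophil markers, 6 mast cell markers and 5 endothelial markers none had a name, and their signals were not analysed here.

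Of 19 hair follicle and sebocyte markers 13 had a name, 11 fell and 0 rose, with sums of 1418 to 4976 in dKO and 6442 to 29406 in ctrl. Of 10 fibroblast markers 4 had a name and 1 rose, a count too small to set apart from the 19.4% of all named genes that rose. Their sums were 2441 to 3991 in dKO and 1516 to 2147 in ctrl. Tyrp1, the 1 named melanocyte marker of 6, had 628.8 to 1237 units in dKO and 336.7 to 809.8 in ctrl and did not pass. In bulk epidermis a change in the number of cells of a type and a change in RNA per cell cannot be told apart, and the part of these shifts in the inhibitor signals was not tested.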

How the data were processed

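Total RNA of newborn epidermis was hybridised to Affymetrix arrays, 8 in all. The authors deposited 1 linear intensity per probe set and array. Per the submitters' processing notes the tools were MAS5 and Partek, and their versions and roles are not stated. On every array the 2% trimmed mean was 250. The authors' deposited table gives, per the file headers, an unadjusted p-value, an F statistic (a score), a ratio and a signed fold of knockout to control. How it was normalized is not stated. It supplied all gene names (1392 genes in 1803 probe sets; 1330 of the genes matched RefSeq symbols).

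The value table has 45101 probe sets, from which 64 array controls and 5 holding a 0 were dropped. Log2 intensities of the other 45032 entered limma 3.58.1 (R 4.3.3; lmFit and eBayes, trend on), in which the model held genotype alone, and p was adjusted by Benjamini-Hochberg over all of them. The code was tested on simulated data. Array correlations ran from 0.897 to 0.929, so no array repeats another. A gene with several probe sets is given by its brightest. Named were the 3 genes, the 4 nearest profiles of each, up to 6 genes per list by p and every further serpin or Wfdc gene of the authors' table; Klk6, Crispld2, Krt6b and the 2 receptors lie outside this rule and were chosen after their values were seen. The genes and lists were chosen with earlier results of these data known. The number of arrays limits the precision. Alternatives were quantile normalization, median centring, 32 added before log2, leaving out the dimmer probe sets, no trend, robust estimation, a replicate block and leaving out arrays. Figures were drawn with matplotlib 3.10.9. A gene counted in the lists is not reported here.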

Additional observations from a re-analysis of the deposited data

Results flagged for a closer look

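Among 80 groups of 4 arrays tested for a sample far from the rest, 5 stood apart by Dixon's ratio of gap to range, and chance gives about 5% of groups. None of them belonged to Slpi, Serpinb2 or Serpinb3a. Spink12 read 929 units in dKO replicate 1, while the remaining dKO arrays read 159.6 to 187.7 (ratio 0.908). Tmprss11e read 130.5 in ctrl replicate 4 and 84.5 to 87.1 in the other ctrl arrays (0.930). Gjb2 read 3739.8 in ctrl replicate 4 and 2503.7 to 2616.8 in the others (0.890). Rhof read 132.4 in dKO replicate 4, while the remaining dKO arrays read 218.8 to 239.2 (0.849). Il2rg read 178.8 in ctrl replicate 2 and 253.2 to 266.8 in the other ctrl arrays (0.869).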

How the results depend on the processing

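Slpi, Serpinb2 and Serpinb3a kept a positive difference under all 16 alternatives. Without the intensity trend none passed (4.29, 1.32 and 0.91; limma Benjamini-Hochberg adjusted p = 0.146, 0.184 and 0.193), 60 probe sets changed in place of 1012, and 0 genes of each list. The unadjusted limma p was then under 0.05 for 6 of 7 serpins, 6 of 7 other inhibitors, 4 of 5 plasminogen genes and 8 of 9 proteases. These unadjusted counts were largely fixed in advance and lend no support. Every named gene had been picked by an unadjusted p of at most 0.0499 on these same arrays. Robust estimation ended the calls of Slpi (4.29, adjusted p = 0.102) and Serpinb2 (1.32, adjusted p = 0.0555; limma). With 1 array left out, the differences ran from 3.59 to 5.06 for Slpi, 1.17 to 1.61 for Serpinb2 and 0.76 to 1.03 for Serpinb3a, and the changed probe sets from 353 to 1417. List counts then ran from 1 to 4 for serpins, 1 to 6 for other inhibitors, 1 to 4 for plasminogen genes and 4 to 7 for proteases. The pair differences ran from 2.42 to 3.45 (Slpi minus Serpinb2), 2.55 to 4.04 (Slpi minus Serpinb3a) and 0.14 to 0.59 (Serpinb2 minus Serpinb3a). Without both arrays numbered 4, an alternative chosen after seeing the data, 1525 probe sets changed, and the first 2 pair differences were 3.68 and 4.35 with exact permutation p = 0.1, the smallest that 3 against 3 allow. With same-numbered arrays as a replicate block these were 2.97 and 3.38 with an adjusted exact p of 0.188, where 4 pairs cannot go below 0.125, and the calls of the 3 inhibitors held (limma adjusted p of 0.0291, 0.044 and 0.0283). The block left 698 changed probe sets and ended the call of Serpinb1b (limma adjusted p = 0.058). Nothing in the labels pairs the arrays. The deviations of same-numbered arrays correlated at -0.088 to 0.043, and 0 of 4 dKO arrays correlated best with their own number. Median centring shifted all differences by 0.125. Detection calls were not used here, so the dim ctrl signals of Slpi and Spink12 limit how well their folds are known. The cause of these dependences was not tested.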
